A study of Danio rerio with 16 samples.

Results

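Acid lipases and the family of the lysosomal phospholipase Pla2g15 were followed in zebrafish embryos by bulk RNA sequencing of samples labelled "body". The genes were taken by symbol: lipf and lipa for the acid lipases, and pla2g15 and lcat for the phospholipase family. Of these 4 symbols, 3 named a row among the 36109 genes of the count table. No row was found under the symbol lipa, which is not analysed here. The 3 genes found all passed the filter on low counts, which left 24300 genes to test.

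Acid lipases split triacylglycerols at low pH. In mammals Lipf is gastric lipase, secreted into the stomach, and Lipa is the enzyme that works inside lysosomes, where it also splits cholesteryl esters. Pla2g15 removes fatty acids from phospholipids in the lysosome, and Lcat is its relative in the blood, where it esterifies cholesterol on high density lipoproteins. In the early fish embryo, which does not yet feed, lipid comes from the yolk, and the yolk syncytial layer around it breaks lipid down and packs it into lipoproteins.

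The study held 16 libraries in 4 groups of 4. The mut24 and mut48 embryos carried a CRISPR/Cas9-mediated knockout of lipf and pla2g15 and were collected at 24 and 48 hours post fertilisation (hpf), and the sib24 and sib48 embryos were wild-type siblings of the same ages without treatment. The tissue label read "body". The labels state neither the alleles, nor the number of embryos in a library, nor whether replicates came from separate clutches. The spread behind each p-value is therefore one between libraries and may be technical. Libraries held 35851808 to 50462333 counts. Levels are given as CPM, counts relative to library size, after scaling by trimmed mean of M-values (TMM). They depend on the length of a gene and are compared only within a gene. A gene was called when the edgeR quasi-likelihood test gave a Benjamini-Hochberg adjusted p under 0.05 over all 24300 genes tested. Between genotypes, 13.7% of all genes had an unadjusted edgeR p under 0.05 at 24 hpf and 22.1% at 48 hpf. DESeq2, a second test run beside edgeR, called more of all genes at 24 hpf than edgeR did, with totals given at the end.

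Both comparisons of genotype asked whether the transcripts of the knocked-out genes and of their relative lcat differed in the mutants. Of the 3 genes, lipf was strongly lower at both ages, pla2g15 was called at neither age, and lcat was higher at 48 hpf. Thus 1 of 3 was called at 24 hpf, where 0.831% of all genes were called, and 2 of 3 at 48 hpf, where 7.43% were. As lipf and pla2g15 are themselves the knocked-out genes, these counts are a description only.

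The acid lipase gene lipf is one of the targeted genes. In mut24 its level was 2.34, 0.577, 1.59 and 1.51 CPM in replicates 1 to 4, against 9.85, 12.0, 25.2 and 8.84 CPM in sib24. In mut48 it was 2.33, 2.24, 2.03 and 3.03 CPM, against 31.6, 18.5, 17.0 and 24.0 CPM in sib48. Every mutant library lay below every sibling library of its age, and the mut48 libraries also lay below the sib24 libraries. A difference with all 4 mutant libraries lower was found in 4.35% of genes at 24 hpf and in 8.46% at 48 hpf. Reads did not vanish: between 22 and 130 per library were still counted in mutants, with 332 to 1306 in siblings. The mean was 1.51 ± 0.723 CPM in mut24 and 14.0 ± 7.62 CPM in sib24 (SD, n = 4 each), 9.32-fold lower in the mutants (log2 fold change -3.22, 95% interval -4.01 to -2.44, edgeR adjusted p = 0.00119). At 48 hpf it was 2.41 ± 0.431 CPM in mut48 and 22.8 ± 6.62 CPM in sib48, 9.45-fold lower (-3.24, interval -4.00 to -2.48, edgeR adjusted p = 4.31e-05). By p, lipf ranked 2 of 24300 genes at 24 hpf and 37 at 48 hpf. The size of the fall differed between ages by -0.02 on the log2 scale, with an interval of -1.11 to 1.08 (interaction, edgeR adjusted p = 0.994).

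The second targeted gene, pla2g15, stood at 20.2, 4.88, 8.80 and 6.39 CPM in mut24, against 9.03, 11.8, 23.7 and 8.01 CPM in sib24. Both groups spanned a wide range and overlapped, with mut24 replicate 1 near the highest sibling library. At 48 hpf the values were 28.0, 39.4, 40.7 and 46.2 CPM in mut48, against 62.9, 60.7, 39.8 and 54.0 CPM in sib48. Here the groups overlapped through sib48 replicate 3, and the other 3 sibling libraries lay above all mutant ones. The log2 fold change was -0.40 at 24 hpf (interval -1.18 to 0.39, edgeR adjusted p = 0.71) and -0.50 at 48 hpf (interval -1.25 to 0.26, edgeR adjusted p = 0.468). Both intervals include 0, and both rest on 1 spread fitted to all 16 libraries. The SD was 68.9% of the mean in mut24 and 55% in sib24, but 19.7% in mut48 and 19.1% in sib48. In a fit of the 48 hpf groups alone the difference was -0.45 (edgeR unadjusted p = 0.014, adjusted p = 0.12). With the 24 hpf groups alone it was -0.38 (edgeR adjusted p = 0.763). At 24 hpf the size of the difference hung on single libraries: leaving out sib24 replicate 3 gave 0.05 and leaving out mut24 replicate 1 gave -0.98. Neither was called (edgeR adjusted p = 0.967 and 0.227). A knockout allele can leave the amount of RNA as it was, so the level of pla2g15 is no check of the labels.

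The level of lcat, which encodes the cholesterol-esterifying enzyme of plasma, ran the other way. In mut24 it was 13.1, 11.8, 17.5 and 12.6 CPM, against 6.97, 9.95, 13.2 and 6.84 CPM in sib24, and sib24 replicate 3 alone reached into the mutant range. In mut48 it was 22.1, 20.3, 43.3 and 27.3 CPM, against 18.8, 12.9, 14.6 and 10.2 CPM in sib48. At 48 hpf all mutant libraries lay above all sibling libraries, a pattern found in 5.70% of genes, and mut48 replicate 3 was the highest of all 16. The mean was 28.2 ± 10.5 CPM in mut48 and 14.1 ± 3.62 CPM in sib48, a 2.00-fold rise (log2 fold change 1.00, interval 0.47 to 1.53, edgeR adjusted p = 0.0229). All 4 mutant libraries higher was met by 4.17% of genes at 24 hpf, lcat not among them. There the mean was 13.7 ± 2.55 CPM in mut24 and 9.25 ± 3.03 CPM in sib24, and the difference of 0.57 (interval 0.04 to 1.1) was not called (edgeR adjusted p = 0.325). The difference at 48 hpf was not shown to be larger than that at 24 hpf (interaction 0.43, interval -0.32 to 1.18, edgeR adjusted p = 0.604), and the interaction was 0.15 without mut48 replicate 3, 0.21 without sib24 replicate 3 and 0.65 without the 4 yolk-poor libraries described further on. The call at 48 hpf was lost in 4 of 8 fits that left out 1 library, with log2 fold changes of 0.72 without mut48 replicate 3, 0.96 without sib48 replicate 2, 1.01 without sib48 replicate 3 and 0.87 without sib48 replicate 4, and edgeR adjusted p-values of 0.0782, 0.0725, 0.0511 and 0.0806 in that order.

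**Figure D1:**
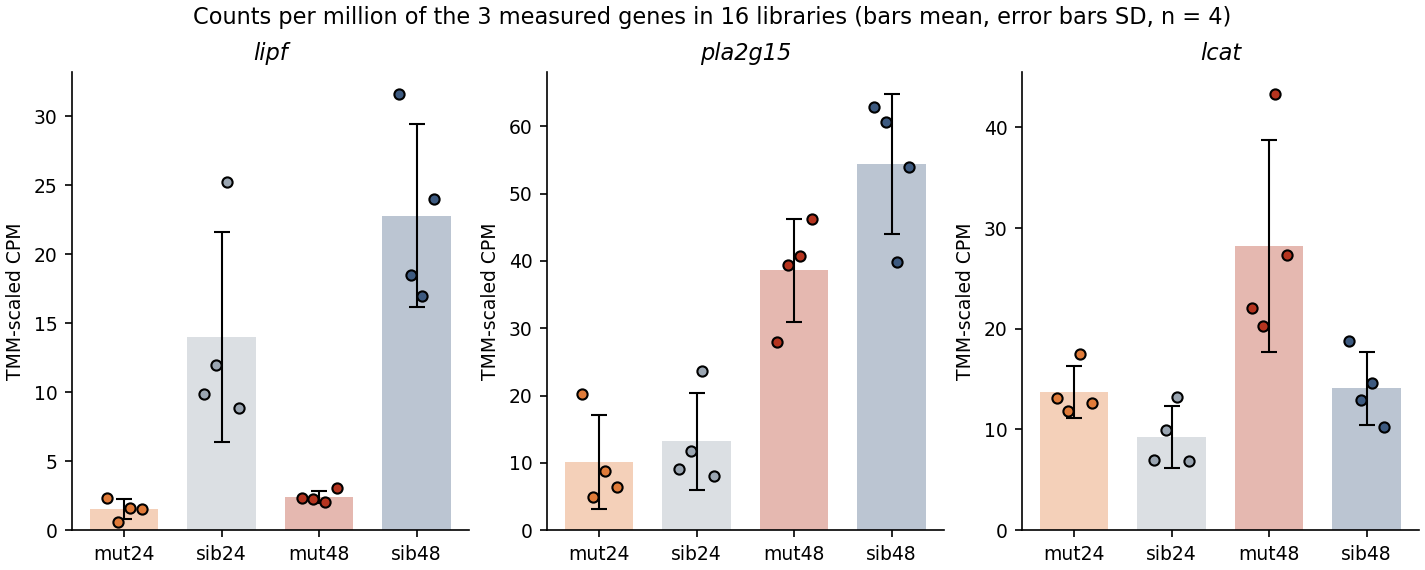
TMM-scaled CPM of lipf, pla2g15 and lcat in each library of mut24, sib24, mut48 and sib48, with bars at the mean and error bars of 1 SD (n = 4 each). The mutant libraries of lipf sit between 0.577 and 3.03 CPM, below every sibling library, while those of lcat at 48 hpf sit above every sibling library.

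**Figure D2:**
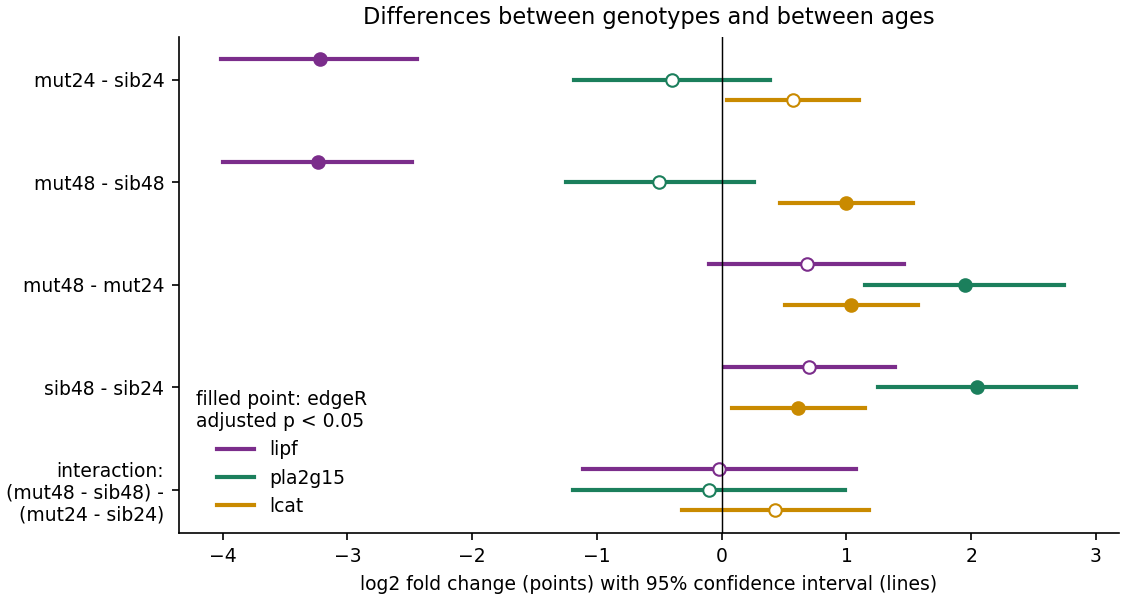
Log2 fold changes of the 3 genes, for genotype at each age, for age in each genotype and for the interaction of both. The 95% confidence intervals were derived from the F statistic of the edgeR test. Filled points passed the adjusted p of 0.05: lipf in both genotype comparisons, lcat in the genotype comparison at 48 hpf, and pla2g15 and lcat in both comparisons of age.

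Between 24 and 48 hpf the phospholipase genes became more abundant, in a background where most genes moved. The call was passed by 64.4% of genes between mut48 and mut24 and by 63.3% between sib48 and sib24, so a call by itself says little about these members. The mean of pla2g15 was 38.6 ± 7.6 CPM in mut48 and 10.1 ± 6.94 CPM in mut24, a 3.85-fold rise (log2 fold change 1.95, SE 0.379, edgeR adjusted p = 0.000213). In siblings it was 54.4 ± 10.4 CPM in sib48 and 13.2 ± 7.23 CPM in sib24, a 4.13-fold rise (2.05, SE 0.377, edgeR adjusted p = 0.000131). No library of 48 hpf lay at or below a library of 24 hpf for this gene, in either genotype. How many of all genes separated the ages in this way was not counted, so this is not shown to be particular to pla2g15. The level of lcat rose 2.06-fold in mutants (1.04, SE 0.251, edgeR adjusted p = 0.00147) and 1.53-fold in siblings (0.61, SE 0.253, edgeR adjusted p = 0.0435). The sibling call was lost in 6 of 8 fits without 1 library and was kept without sib24 replicate 3 (0.81) and without sib48 replicate 4 (0.74). For lipf the log2 difference between ages was 0.68 in mutants (SE 0.371, edgeR adjusted p = 0.117) and 0.70 in siblings (SE 0.326, edgeR adjusted p = 0.0695), and neither was called. Without mut24 replicate 1 it was 0.96 in mutants and without sib24 replicate 3 1.13 in siblings, and each of these was called (edgeR adjusted p = 0.0432 and 0.00294). It shrank to 0.29 in mutants and 0.23 in siblings without the 4 libraries of 24 hpf poorest in yolk markers, which are described further on, and to 0.30 and 0.39 with those markers as a covariate, none of them called (edgeR adjusted p = 0.488, 0.527, 0.388 and 0.186). From low to high, the groups of lipf stood in the order mut24, mut48, sib24 and sib48, and neighbours of different age within a genotype did not differ beyond the test, while mut48 and sib24 differ in both genotype and age and were not compared. For pla2g15 the order was mut24, sib24, mut48 and sib48, with the genotypes of each age not called. For lcat it was sib24, mut24, sib48 and mut48, where sib24 and mut24 did not differ beyond the test. The interaction of genotype and age called 1.00% of all genes and none of the 3, and for pla2g15 it was -0.10 (interval -1.19 to 0.99, edgeR adjusted p = 0.954). The unadjusted p of the interaction was above 0.05 for all 3, and DESeq2 called none.

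Ratios of 2 genes within a library do not depend on its scaling, and were chosen after the values had been seen. In mut24 the ratio of pla2g15 to lipf counts was 8.62, 8.45, 5.53 and 4.23, against 0.917, 0.985, 0.94 and 0.907 in sib24. The sib24 ratios lay close together, although the CPM varied 2.86-fold for lipf and 2.96-fold for pla2g15 over the same libraries. In mut48 it was 12.0, 17.6, 20 and 15.2, against 1.99, 3.28, 2.34 and 2.25 in sib48. The log2 ratio was 2.78 higher in mut24 than in sib24 and 2.72 higher in mut48 than in sib48 (exact permutation p = 0.0286 for each, two-sided, the smallest that 4 against 4 libraries allow, adjusted p = 0.0343 over 6 tests). The groups did not overlap at either age. The log2 ratio of lcat to lipf was higher in mutants by 3.86 at 24 hpf and by 4.18 at 48 hpf, with the same p-values. Since lipf alone already separated the genotypes at both ages, the p-values of its ratios are no independent support.

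The ratio of lcat to pla2g15 separated the genotypes at 48 hpf. It was 0.788, 0.515, 1.06 and 0.592 in mut48, against 0.299, 0.213, 0.366 and 0.188 in sib48, with no overlap. The log2 ratio was -0.49 ± 0.46 in mut48 and -1.96 ± 0.44 in sib48, a difference of 1.46 (SD, n = 4, exact permutation p = 0.0286, adjusted p = 0.0343 over 6 tests). This p is no independent support either, as the ratio was chosen after the values of both genes had been seen. In mut24 the ratio was 0.651, 2.41, 1.99 and 1.97, against 0.771, 0.84, 0.558 and 0.854 in sib24. There mut24 replicate 1 fell among the siblings, and the difference of 1.08 did not pass (exact permutation p = 0.114, adjusted p = 0.114).

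**Figure D3:**
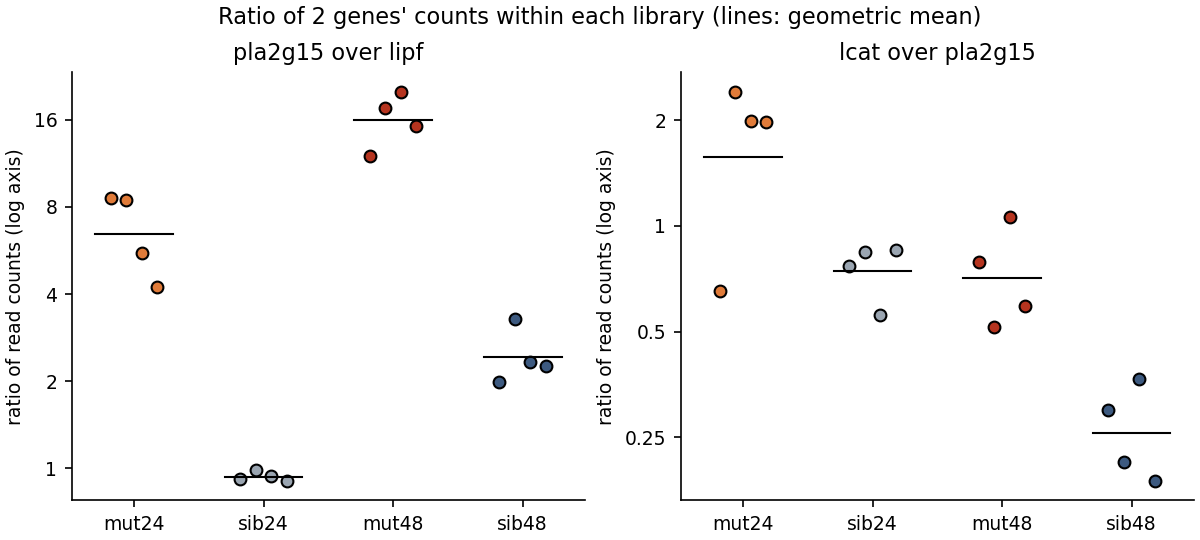
Ratio of read counts of pla2g15 to lipf and of lcat to pla2g15 within each library, on a log axis, with lines at the geometric mean of each group. The 4 sib24 libraries lie between 0.907 and 0.985 for pla2g15 over lipf, and the mut48 libraries lie above all sib48 libraries for lcat over pla2g15.

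The libraries of 24 hpf differed in their content of yolk syncytial layer transcripts, and the 3 genes varied with it. Over 21 markers of this layer the mean log2 CPM was 5.99, 2.34, 5.28 and 2.06 in replicates 1 to 4 of mut24, against 3.92, 4.93, 5.85 and 2.7 in sib24. It ran from 4.99 to 5.29 in mut48 and from 5.25 to 5.76 in sib48. Summed, the markers spanned 241 to 4860 CPM in mut24, 312 to 4380 in sib24, 2840 to 3980 in mut48 and 3190 to 5030 in sib48, and no marker was at 0 in a group. In sib24 the libraries stood in 1 order by lipf, by pla2g15, by lcat and by these markers, with replicate 3 highest, then replicates 2, 1 and 4. In mut24 replicate 1 was highest and replicate 3 next in lipf, pla2g15 and the markers, while lcat was highest in replicate 3 and next in replicate 1. Replicate 4 of mut24 was lowest in the markers and replicate 2 in all 3 genes. Over the 8 libraries of 24 hpf the deviations from the group means had an r with the marker mean of 0.76 for lipf, 0.89 for pla2g15 and 0.70 for lcat, given as a description. At 48 hpf the r was 0.51, 0.88 and 0.44. The pattern at 24 hpf was not particular to these markers: r was 0.77, 0.88 and 0.73 with liver markers, and 0.59, 0.85 and 0.48 with intestine markers. Between genotypes edgeR called 0 of the 21 markers at 24 hpf and DESeq2 called 0. An unadjusted p under 0.05 was held by 1 of them, against 13.7% of all genes. At 48 hpf edgeR called 2 higher and 1 lower, which is 14.3% against 7.43% of all genes. Given the wide spread of the markers within mut24 and within sib24, a difference between genotypes could hardly be called at 24 hpf. That spread also enters the tests at 48 hpf, since 1 spread per gene was fitted to all 16 libraries. The few calls therefore do not show that yolk content was equal. With the marker mean as a covariate the genotype difference of pla2g15 was -0.26 at 24 hpf and -0.35 at 48 hpf (edgeR adjusted p = 0.585 and 0.262). That of lipf was -3.03 and -3.12 (edgeR adjusted p = 4.96e-05 and 6.1e-07), and that of lcat 0.68 and 1.05 (edgeR adjusted p = 0.137 and 0.00695). In the same fit the difference of age for lcat in siblings was 0.45 and was no longer called (edgeR adjusted p = 0.11). Without the 4 libraries of 24 hpf poorest in the markers, replicates 2 and 4 of mut24 and 1 and 4 of sib24, the age difference of pla2g15 shrank to 1.41 in mutants and 1.55 in siblings and was still called (edgeR adjusted p = 0.00174 and 0.000886), while that of lcat in siblings was 0.22 (edgeR adjusted p = 0.535). In bulk RNA, fewer cells of a type and less RNA per cell cannot be told apart.

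Liver markers, which the yolk syncytial layer can also express, split the 24 hpf libraries in the same way: 13 of them summed to 27.0 to 1310 CPM in mut24 and to 33.5 to 996 CPM in sib24. At 48 hpf they summed to 651 to 996 CPM in mut48 and 636 to 1010 CPM in sib48. Macrophage and neutrophil markers, of interest because lysosomal lipases are abundant in phagocytes, summed over 19 genes to 20.8 to 25.1 CPM in mut24, 16.3 to 21.1 in sib24, 74.4 to 112 in mut48 and 81.0 to 97.2 in sib48. EdgeR called 0 of the 13 liver markers and 0 of these 19 at either age. Of the liver markers 0 had an unadjusted p under 0.05 at either age and DESeq2 called 0, and of the 19 it was 3 at 24 hpf and 2 at 48 hpf, with 0 and 1 called by DESeq2. The liver markers also varied widely within each 24 hpf group, so their 0 calls do not show equal levels. Exocrine pancreas, intestine and hatching gland markers were called by edgeR for 0 of 7, 0 of 10 and 1 of 11 at 24 hpf and for 0, 1 and 1 at 48 hpf, and DESeq2 gave the same counts. All 11 hatching gland markers had a positive log2 fold change at 24 hpf, with a median of 0.68. At 48 hpf 8 of them did, with a median of 0.14. Of all genes edgeR called 0.831% at 24 hpf and 7.43% at 48 hpf, and 13.7% and 22.1% had an unadjusted p under 0.05. Neither the pancreas markers at either age nor the intestine markers at 24 hpf held one with an unadjusted p under 0.05. The part of these cell types in the levels of lipf, pla2g15 and lcat was not tested.

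**Figure D4:**
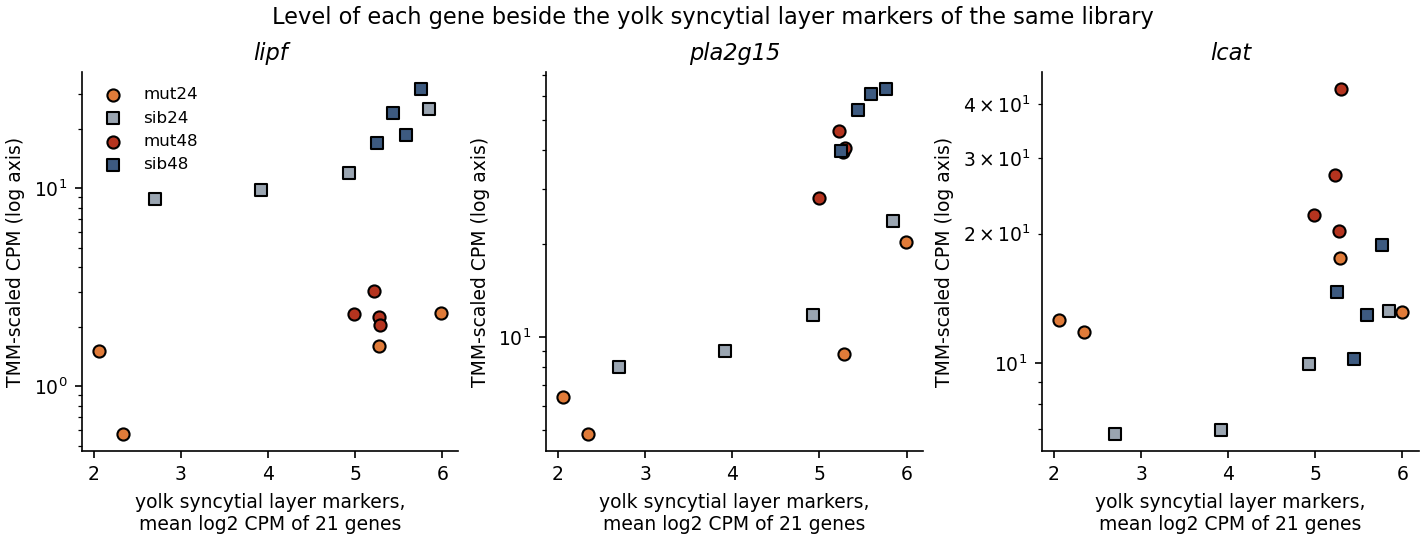
CPM of lipf, pla2g15 and lcat in each library, on a log axis, against the mean log2 CPM of 21 yolk syncytial layer markers, with circles for mutants and squares for siblings. At 24 hpf the marker mean spans 2.06 to 5.99 in mutants and 2.7 to 5.85 in siblings, and mutant libraries of lipf stay below siblings along the whole span.

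The rise of lcat was set beside its position in the genome. Gene order came from RefSeq (GRCz12tu, another assembly than that of the counts). There pla2g15 and lcat lie next to each other on chromosome 25, with 1 long noncoding RNA gene between them that overlaps pla2g15. Without a stated strand setting, reads from this overlap cannot be assigned with certainty. The gene lipf lies on chromosome 12 and overlaps another noncoding RNA gene. Where embryos are sorted by genotype, variants close to a mutation are inherited with it, so linked variants and the knockout cannot be told apart for lcat.

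The genes around both targeted loci were then read in order. Among the 10 tested genes on each side of pla2g15, which include lcat, edgeR called 0 of 20 at 24 hpf, with 9 at an unadjusted p under 0.05 where 13.7% of all genes had one, and DESeq2 called 4. Since DESeq2 called more of all genes at that age than edgeR did, its counts cannot be read against the edgeR shares. At 48 hpf edgeR called 2 higher and 2 lower, 20% against the 7.43% of all genes. Besides lcat these were usb1, an RNA exonuclease gene beside pla2g15 on its other flank (-0.42, edgeR adjusted p = 0.0181), csnk2a2b, a casein kinase catalytic subunit gene (-0.26, edgeR adjusted p = 0.0212), and zgc:101566 (0.44, edgeR adjusted p = 0.0246). The rise of lcat was the largest of the 20 in size. Around lipf 0 of 20 were called by edgeR at 24 hpf, with 5 at an unadjusted p under 0.05 and 2 called by DESeq2. At 48 hpf 3 were lower and 0 higher (15%). These were ifit11, named for interferon-induced proteins, with 10 reads in mut48 and 125 in sib48 (edgeR adjusted p = 0.0149), the transporter gene slc16a12b (-0.91, edgeR adjusted p = 0.0449) and the mitochondrial AAA ATPase gene atad1b (-0.36, edgeR adjusted p = 0.00312). At 24 hpf ifit11 was low as well, with 2 reads in mut24 and 53 in sib24, but was not called (log2 fold change -4.48, edgeR adjusted p = 0.0597). With 25 genes on each side, a width chosen after the data were seen, 14.0% were called around pla2g15 and 8% around lipf at 48 hpf. Over the whole of chromosome 25 it was 9.41% of 595 tested genes and over chromosome 12 10.8% of 688. At 24 hpf the shares were 4% and 2% of the 25 genes on each side of pla2g15 and lipf, 3.19% of chromosome 25 and 2.91% of chromosome 12, against 0.831% of all genes.

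**Figure D5:**
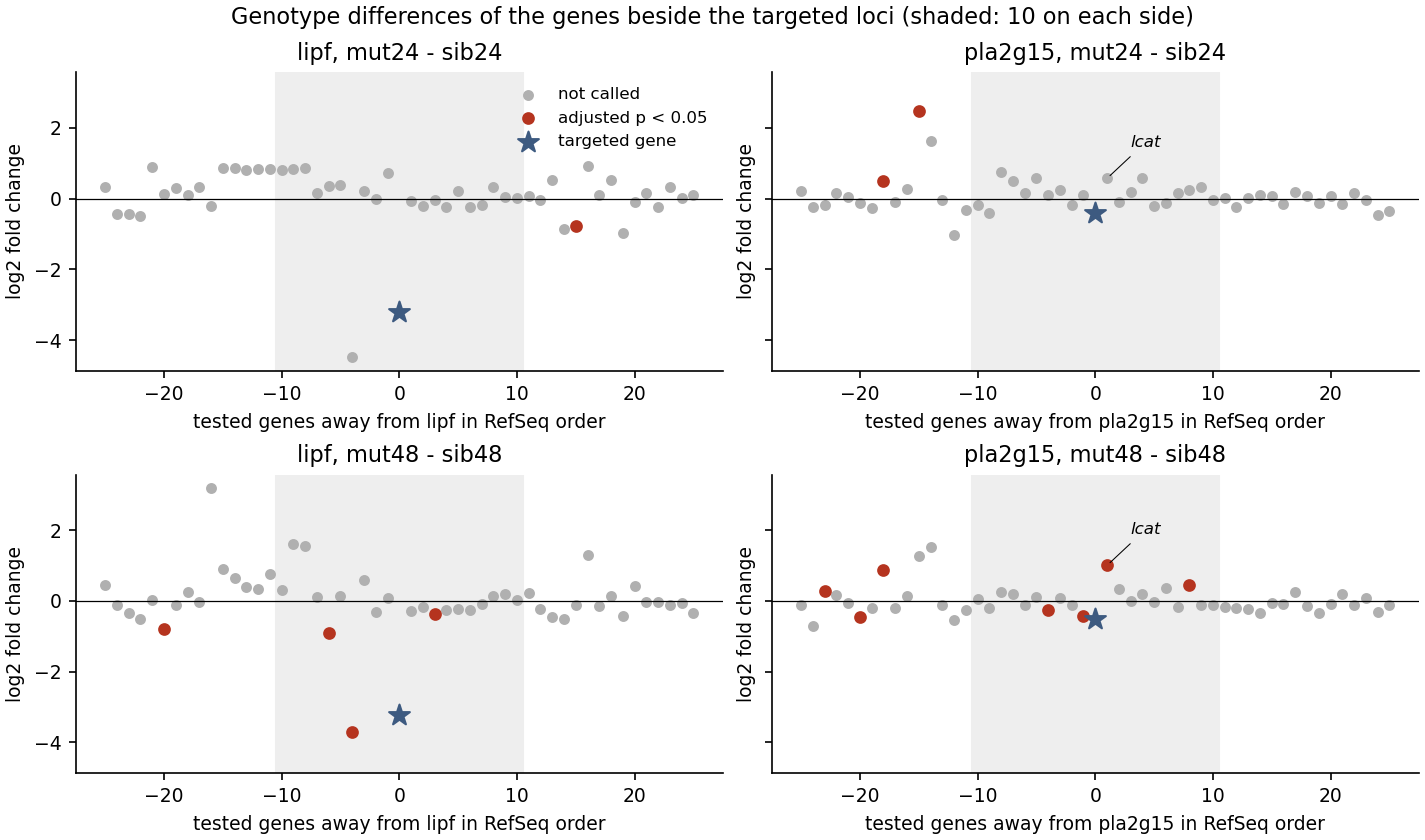
Log2 fold changes between genotypes at 24 and 48 hpf of the 25 tested genes on each side of lipf and of pla2g15, by the number of genes away from the targeted gene in RefSeq order, with the targeted gene as a star. Within the shaded 10 genes on each side no gene was called at 24 hpf, and 3 around lipf and 4 around pla2g15, lcat among them, were called at 48 hpf.

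Other lysosomal genes, most of them of lipid breakdown, were then set beside the acid lipase and the phospholipase. The list held enzymes of lipid breakdown and their helpers, exporters, membrane proteins and also peptidases such as tpp1 and ctsa. Of 34 tested genes besides the members, 12 were higher and 0 lower in mut48 than in sib48. This is 35.3%, against 7.43% of all genes, and the median log2 fold change was 0.34 where that of all genes was -0.04. This list and those below were chosen with earlier results of these data known, so their shares are a description only. The membrane glycoprotein gene lamp1a stood at 92.2 ± 4.91 CPM in mut48 and 48.3 ± 1.84 in sib48 (log2 fold change 0.93, edgeR adjusted p = 1.11e-07). The peptidase gene tpp1 stood at 52.6 ± 4.13 and 27.5 ± 2.24 CPM in the same groups (0.94, edgeR adjusted p = 1.57e-06). The gene naga of an alpha-galactosaminidase that trims glycolipids stood at 34.7 ± 3.26 CPM in mut48 and 17.7 ± 2.63 CPM in sib48 (0.97, edgeR adjusted p = 0.000178). Also higher were hexb and hexa of ganglioside breakdown (log2 fold change 1.02 and 0.44), galca and arsa of galactolipid breakdown (0.97 and 0.55) and the sphingomyelinase gene smpd1 (0.55). Further called genes were ctsa of a protective carboxypeptidase and scarb2a and glmp of the lysosomal membrane (0.67, 0.47 and 0.36, edgeR adjusted p = 0.000671, 0.00135 and 0.0256). Those after naga were named after their values were seen. At 24 hpf edgeR called 0 of the 34, while DESeq2 called 2, and the median was 0.14 beside 0.00 for all genes. An unadjusted p under 0.05 was held by 8 of the 34 there, against 13.7% of all genes. The count at 48 hpf was 7 without sib48 replicate 2 and without mut48 replicate 2, 20 with the yolk marker covariate and 19 without the 4 yolk-poor libraries.

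Of 24 tested regulators of lysosomal genes, edgeR called 6 higher and 0 lower at 48 hpf (median 0.12). This is 25%, against 7.43% of all genes. At 24 hpf edgeR called 0 and DESeq2 called 0, while 5 had an unadjusted p under 0.05, as 13.7% of all genes did. The other 18 were not called at 48 hpf, tfeb itself (0.07), tfe3b (0.12) and mitfa (0.18) among them. The called ones were tfe3a and tfec of the Tfeb family of transcription factors (log2 fold change 0.86 and 0.54), flcn, fnip1 and fnip2 of the folliculin complex that restrains that family (0.51, 0.41 and 0.78), and foxo3a, a forkhead factor gene (0.39). The row of fnip2 was found under the clone name si:ch211-42i9.8. The edgeR adjusted p of tfe3a was 0.000901, with 36.9 ± 7.67 CPM in mut48 and 20.4 ± 1.63 in sib48. For fnip2 it was 0.00081 and for foxo3a 0.00754.

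The plasma lipases act on lipoproteins, as Lcat does. Of 29 tested genes of plasma lipases and high density lipoproteins besides lcat, 5 were higher and 1 lower at 48 hpf (median 0.02). This is 20.7%, against 7.43% of all genes. The endothelial lipase gene lipg stood at 92.8 ± 5.25 CPM in mut48 and 25.4 ± 1.82 CPM in sib48, a 3.66-fold rise (edgeR adjusted p = 3.73e-10). For lpl, the gene of lipoprotein lipase, the level was 142 ± 16.4 CPM in mut48 and 44.1 ± 3.36 CPM in sib48 (3.22-fold higher, edgeR adjusted p = 1.41e-08). In contrast angptl4, which encodes an inhibitor of that lipase, fell to 6.31 ± 1.96 CPM in mut48, against 58.6 ± 2.92 CPM in sib48 (9.28-fold lower, edgeR adjusted p = 2.93e-07). The other called genes were pltp for phospholipid transfer, abca1a for cholesterol efflux and apodb, an apolipoprotein D gene (log2 fold change 0.74, 0.63 and 0.67, edgeR adjusted p = 0.018, 0.0288 and 0.0417). Among genes not called, apoea stood at 8.57 ± 6.56 CPM in mut48 and 107 ± 31.7 CPM in sib48. Its SD at 24 hpf, which enters the same fit, was 9.94 CPM around a mean of 5.69 in mut24. Means were also lower in mut48 for apoeb (154 against 290 CPM in sib48), apoc1 (126 against 240) and apoc2 (34.2 against 72.7). Of the 29 genes, 15 had a positive log2 fold change at 48 hpf. The 5 higher genes became 2 without sib48 replicate 2 or 4, and 3 without sib48 replicate 3 or mut48 replicate 2, 3 or 4. The 1 lower gene became 5 with the yolk marker covariate, with the compared groups alone and without the yolk-poor libraries. The covariate is no independent check here, since apoa1b, apoa2 and apoc2 of this list are also among its markers. At 24 hpf edgeR called 0 of 29 and DESeq2 called 2, with 4 at an unadjusted p under 0.05, where 13.7% of all genes had one.

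The remaining lists of lipid enzymes held 3 genes called by edgeR, all lower at 48 hpf. Among all genes at that age, 1115 were called lower and 691 higher. Of 27 tested genes of other phospholipases A and related esterases, 0 were higher and 3 lower at 48 hpf (median -0.08). This is 11.1%, against 7.43% of all genes. The glycerophosphodiesterase gene gpcpd1 was first among the 3 by p (-0.68, edgeR adjusted p = 0.00278). The other called genes were pafah1b3 and lypla2 (-0.21 and -0.23, edgeR adjusted p = 0.0401 and 0.0466), each lost in 12 of 17 alternatives. None of the 27 was called by edgeR at 24 hpf, where DESeq2 called 1 and 5 were under an unadjusted p of 0.05, as were 13.7% of all genes. Of 16 genes of the cholesteryl ester cycle and of cytosolic fat breakdown, edgeR called 0 at 24 and 0 at 48 hpf, while DESeq2 called 0 and 1. An unadjusted p under 0.05 was held by 2 and 4 of the 16. For all genes the shares at that p were 13.7% at 24 hpf and 22.1% at 48 hpf. The median of these 16 at 48 hpf was -0.33.

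The genes whose levels over the 16 libraries were most like those of each member were sought among 18425 named rows with a mean of at least 1 CPM. Pearson's r over libraries is given as a description, since age, genotype and yolk content are shared by all of them. For lipf they were cpt1ab, which lets fatty acids into mitochondria (r = 0.926), pgap3 of lipid anchor remodelling (0.919), ghdc (0.91) and the thiolase gene acaa2 of fatty acid oxidation (0.903). Of these pgap3 and ghdc lie on the chromosome of lipf, number 12, and cpt1ab on that of pla2g15, number 25. Since these genes were chosen for tracking lipf over both genotypes, their difference between genotypes is in part given by the choice and is stated with no test: the log2 fold change at 48 hpf was -1.05 for cpt1ab, -2.33 for pgap3, -0.885 for ghdc and -1.02 for acaa2. For pla2g15 the closest were mansc1, pbld, rnf220b and pgm1 (r = 0.97, 0.965, 0.965 and 0.962), and pgm1 encodes a phosphoglucomutase. For lcat they were si:dkey-17m8.1 (0.942), parp4 (0.932), the autophagy receptor gene sqstm1 (0.929) and ahnak (0.923). By the same choice, the log2 fold changes at 48 hpf of sqstm1 and parp4, 0.84 and 0.88, are a description only.

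With the mean of each group taken away, other genes came to the front. The deviations of pla2g15 were most like those of abca1b, LO017850.1, spns1 and slc43a2a (r = 0.936, 0.934, 0.928 and 0.924). Of these, spns1 encodes a lysosomal carrier that exports lysophospholipid, the product of phospholipases A, and abca1b a cholesterol exporter. Those of lipf were most like si:dkey-191g9.7, slc7a11, crot and lzts2b (r = 0.906, 0.906, 0.901 and 0.891), where crot encodes a peroxisomal carnitine acyltransferase. Those of lcat were most like zbtb37, FAM83G, aftphb and lrrc61 (r = 0.927, 0.922, 0.912 and 0.884).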

How the data were processed

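Whole-number read counts per gene were used as deposited, 1 column per library, not normalised or pooled by the authors. Per the submitters' processing notes, FastQC 0.12.1, Trim Galore 0.6.10, STAR 2.7.10b, featureCounts 2.0.6 and build GRCz11 were used. The sources used here give no annotation, strand setting or handling of multi-mapping reads. Per the labels' protocols, RNA was extracted with TRIzol and libraries were made with a VAHTS kit.

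After filterByExpr and TMM scaling, edgeR 4.0.16 (R 4.3.3) fitted 1 mean per group to all 16 libraries, and its quasi-likelihood test gave p-values adjusted over 24300 genes. Libraries held 35851808 to 50462333 counts. The script was tested on simulated counts. The SE was derived as the size of the log2 fold change divided by the square root of the F statistic of that test. The 95% intervals were built from this SE with a t quantile. Log2 CPM used a prior count of 2. The members and 11 gene lists were chosen with earlier results of these data known. Of 255 list entries 237 had a row, 15 through a RefSeq synonym. Named besides the members were, per list and genotype contrast, up to 3 called genes of smallest p, called genes among the 10 neighbours on each side, and the 4 genes most alike by each of 2 measures. Other list genes were named after their values were seen. A called gene of the lysosomal list is counted but not reported here by name. Tested genes matched the RefSeq order for 78.2%.

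As alternatives, scaling was by RLE or upper quartile, and further fits used no filter, at least 1 CPM in 4 libraries, DESeq2 1.42.0, a fit of the compared groups alone, the replicate number as a block, the yolk marker covariate, and fits without 1 library or without the 4 yolk-poor libraries.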

Additional observations from a re-analysis of the deposited data

Results flagged for a closer look

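Among 120 sets of 4 libraries, 6 held a library whose gap to the next, divided by the range, was above Dixon's limit for 4 values, where chance gives about 1 in 20. The ratio of lcat to lipf was 21.3 in mut48 replicate 3, the library highest in lcat, with 9.03 to 9.47 in the other mut48 libraries. The same library had the lowest mean of the exocrine pancreas markers in its group, a log2 CPM of -0.43. The lysosomal gene naga was lowest in mut48 replicate 1 with 29.9 CPM, and lpl was lowest in sib48 replicate 1 with 39.1 CPM. The neighbour of lipf named ifit11 stood at 0.0525 CPM in mut24 replicate 2, which held both reads of that group, and at 0.716 CPM in sib24 replicate 3.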

How the results depend on the processing

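The falls of lipf kept their call in each of 17 alternatives at either age, with log2 fold changes of -3.50 to -2.77 at 24 hpf and -3.36 to -3.04 at 48 hpf, and pla2g15 was called between genotypes in none. Left-out libraries moved the age difference of lipf from 0.48 to 1.13 in siblings (called without sib24 replicate 3) and from 0.42 to 0.96 in mutants (called without mut24 replicate 1). They moved its interaction from -0.46 to 0.26, pla2g15 at 24 hpf from -0.98 to 0.05 and its interaction from -0.54 to 0.48, lcat at 48 hpf from 0.72 to 1.17, its interaction from 0.15 to 0.60 and the age difference of lcat in siblings from 0.42 to 0.81. The interaction of lipf was 0.02 with upper-quartile scaling, 0.03 without a filter, 0.03 with the replicate block and 0.06 without the yolk-poor libraries. The age difference of lcat in siblings lost its call with the covariate (0.45) and without the yolk-poor libraries (0.22). The cause was not tested.

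Over all genes 95 were higher and 107 lower in mut24, and 691 and 1115 in mut48. At 24 hpf these were 373 and 449 with DESeq2, 393 and 219 with the covariate and 6 and 17 without the yolk-poor libraries, and 64 were lower in a fit of the compared groups alone. At 48 hpf the lower genes were 573 without a filter, 482 with the compared groups alone and 661 without the yolk-poor libraries. Leaving out a library gave 22 to 316 higher and 40 to 146 lower at 24 hpf, and 353 to 740 higher and 483 to 1241 lower at 48 hpf. At 24 hpf the higher genes were fewest without sib24 replicate 1 and most without sib24 replicate 3, and at 48 hpf both counts were lowest without sib48 replicate 2.

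Lysosomal genes called higher were 2 with DESeq2, 6 with the covariate and 0 to 2 with a library left out at 24 hpf, and 20, 19 and 7 to 11 at 48 hpf with the covariate, without the yolk-poor libraries and with a library left out. Plasma lipase and lipoprotein genes called lower were 2 with DESeq2, 1 with the covariate and 0 to 1 with a library left out at 24 hpf, and at 48 hpf 5 with the compared groups alone, 2 with the replicate block, 5 with the covariate and 5 without the yolk-poor libraries, while 2 to 6 were higher with a library left out. Other phospholipase genes called lower were 1 with DESeq2 at 24 hpf, and at 48 hpf 1 under RLE, under upper-quartile scaling, without a filter and with the block, and 1 to 4 with a library left out. For cholesteryl ester genes, the covariate called 3 higher and DESeq2 1 lower at 48 hpf, and a left-out library 0 to 1 lower at 24 hpf. Of the 18 other genes named from lists and neighbours 12 kept their call in every alternative that gave a value, and pafah1b3, lypla2, slc16a12b, usb1, csnk2a2b and zgc:101566 did not, with edgeR adjusted p-values up to 0.205. Same-numbered libraries of the genotypes deviated together unevenly (r from -0.23 to 0.35), so the numbers were not taken as pairs.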
